A study of Mus musculus with 18 samples.

Results

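The genes described are 10 neuropeptide precursors that cortical neurons can express: Tac1, Penk, Pdyn, Pnoc, Crh, Adcyap1, Nts, Cartpt, Vgf and Scg2. They were chosen by name, and each matched 1 row of the deposited count table, so they are 10 of its 37310 genes. All 10 were among the 15433 genes with enough reads to be tested. RNA was sequenced from cultured mouse cortical neurons in 4 groups of 3 libraries. The groups were Fmr1 knockout (KO) neurons with JQ1, wild-type (WT) neurons with JQ1, KO neurons with the vehicle DMSO, and WT neurons with DMSO. Treatment began at 7 days in vitro and lasted 24 h, and the labels give no dose. JQ1 is a small molecule that displaces BET bromodomain proteins from acetylated histones. Fmr1 encodes FMRP, an RNA-binding protein whose loss causes fragile X syndrome in humans. Libraries treated with THZ1 were not analysed here. The labels give neither the sex nor the number of embryos behind a culture, nor whether same-numbered libraries shared a culture, so p-values measure the spread between these libraries, which may be technical.

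Neuropeptides are cut from larger precursor proteins inside dense-core vesicles by prohormone convertases (Pcsk1, Pcsk2), trimmed by carboxypeptidase E (Cpe) and often amidated by Pam. They are released during sustained firing and act mostly through G-protein-coupled receptors. In the cortex many precursors mark subsets of GABAergic interneurons, and several respond to neuronal activity through CREB sites in their promoters.

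The libraries held between 21643592 and 134110850 gene counts, and levels are given as CPM, the reads of a gene scaled to a common library size by edgeR's TMM method. Fmr1 itself averaged 24.4 ± 4.4 CPM (SD, n = 3) in KO neurons with DMSO, against 121 ± 2.9 in WT neurons with DMSO, a log2 change of -2.31 (edgeR, adjusted p = 9.2e-08). Replicate 3 of KO differed from the other libraries of both genotypes in a sex-linked gene, singled out after its values were seen: Xist stood at 4.34 CPM in KO replicate 3 with JQ1 and 4.29 CPM in KO replicate 3 with DMSO, and between 231 and 441 CPM in the other 10 libraries. Markers of excitatory neurons, summed over 8 genes, lay between 1211 and 1461 CPM in all 12 libraries. Astrocyte markers, also summed over 8 genes, lay at 306 to 501 CPM in KO neurons with JQ1, 490 to 659 in WT neurons with JQ1, 472 to 637 in KO neurons with DMSO and 676 to 808 in WT neurons with DMSO. Added ERCC spike-ins gave another scale, on which the median gene lay at a log2 change of -0.82 for KO over WT in DMSO and -0.63 for JQ1 over DMSO in WT. That scale was itself unsteady: spike-in reads were 0.35%, 0.169% and 0.244% of gene counts in the KO libraries with DMSO. All changes below are therefore relative to the middle of all genes and say nothing about RNA per cell. In bulk RNA, fewer cells that make a peptide and less of its RNA per cell cannot be told apart.

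Of the 10 genes, 6 had promoter windows in the RefSeq table (GRCm38.p6; 250 bases before to 50 after a start), 8 windows in all. The 4 below belong to genes called under JQ1: Scg2 higher in KO, and Nts, Pdyn and Cartpt lower in at least 1 genotype. Of these calls, that of Scg2 rested on single libraries, and the filter on low counts favoured those of Pdyn and Cartpt. Capitals mark the cAMP response element TGACGTCA, its half-site TGACG, the AP-1 site TGANTCA and the TATA box TATAAA, each searched on both strands; a full element holds a half-site on each strand.
Scg2, chr1:79439977-79440276, minus strand: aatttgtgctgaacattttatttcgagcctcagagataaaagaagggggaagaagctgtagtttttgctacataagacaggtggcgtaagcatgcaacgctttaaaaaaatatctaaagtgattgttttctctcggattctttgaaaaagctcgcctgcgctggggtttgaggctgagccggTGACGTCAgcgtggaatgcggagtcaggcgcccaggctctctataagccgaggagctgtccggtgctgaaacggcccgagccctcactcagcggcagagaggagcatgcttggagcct
Cartpt, chr13:99900634-99900933, minus strand: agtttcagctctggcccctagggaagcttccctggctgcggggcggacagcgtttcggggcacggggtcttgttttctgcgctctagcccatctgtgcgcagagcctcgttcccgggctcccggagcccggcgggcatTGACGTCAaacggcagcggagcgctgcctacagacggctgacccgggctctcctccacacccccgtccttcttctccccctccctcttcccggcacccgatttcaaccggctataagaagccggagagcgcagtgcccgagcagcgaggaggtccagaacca
Nts, chr10:102490369-102490668, minus strand: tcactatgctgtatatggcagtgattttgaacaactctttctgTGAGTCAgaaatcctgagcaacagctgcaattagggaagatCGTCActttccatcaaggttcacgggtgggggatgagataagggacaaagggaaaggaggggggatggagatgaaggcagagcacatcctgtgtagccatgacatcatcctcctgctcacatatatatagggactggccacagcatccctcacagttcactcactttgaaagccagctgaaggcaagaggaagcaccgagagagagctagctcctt
Pdyn, chr2:129699889-129700188, minus strand: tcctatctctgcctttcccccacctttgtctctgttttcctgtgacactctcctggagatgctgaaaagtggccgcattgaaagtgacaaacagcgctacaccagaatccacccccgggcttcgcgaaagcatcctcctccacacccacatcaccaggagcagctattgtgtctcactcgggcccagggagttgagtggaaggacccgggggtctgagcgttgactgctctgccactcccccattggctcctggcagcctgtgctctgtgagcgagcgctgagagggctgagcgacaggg
A full element stood at base -68 from the start in Scg2 and at -112 in Cartpt. It occurs in 1.79% of all 32851 windows of 300 bases. Nts held a half-site at -166 and an AP-1 match at -207, motifs found in 20.8% and 7.81% of all windows. None of the 4 motifs was in either Pdyn window, and Tac1 held 2 half-sites. Adcyap1 held a half-site in both of its overlapping windows, and a TATA box, which 13.6% of windows hold, in 1 of them. A match describes letters in a window, not a bound site.

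The 10 genes spanned more than 2 orders of magnitude. Per kilobase of exon, which allows levels to be compared between genes, Scg2 (secretogranin II, the granin precursor of secretoneurin) was highest in every group. It stood at 38.7 ± 15 CPM per kb in KO neurons with JQ1, 26.9 ± 4.6 in WT neurons with JQ1, 24.8 ± 3.5 in KO neurons with DMSO and 22.1 ± 1.1 in WT neurons with DMSO (SD, n = 3 each). Vgf and Nts came next, in an order that differed between genotypes: in DMSO, Vgf stood at 13.6 ± 0.31 CPM per kb in KO and 9.78 ± 1 in WT, and Nts at 10.2 ± 1.7 in KO and 11.8 ± 0.79 in WT. Pnoc followed at 4.28 ± 0.43 in KO and 2.48 ± 0.3 in WT with DMSO, ahead of Penk, Adcyap1 and Tac1, which lay between 0.897 and 2.03. Pdyn, Crh and Cartpt were at the floor of the assay, between 0.115 and 0.216 CPM per kb in DMSO, and their order there did not hold against their spread. Exon lengths are GENCODE M21 on GRCm38, while the submitters' processing notes name mm9, so these values are approximate.

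**Figure D1:**
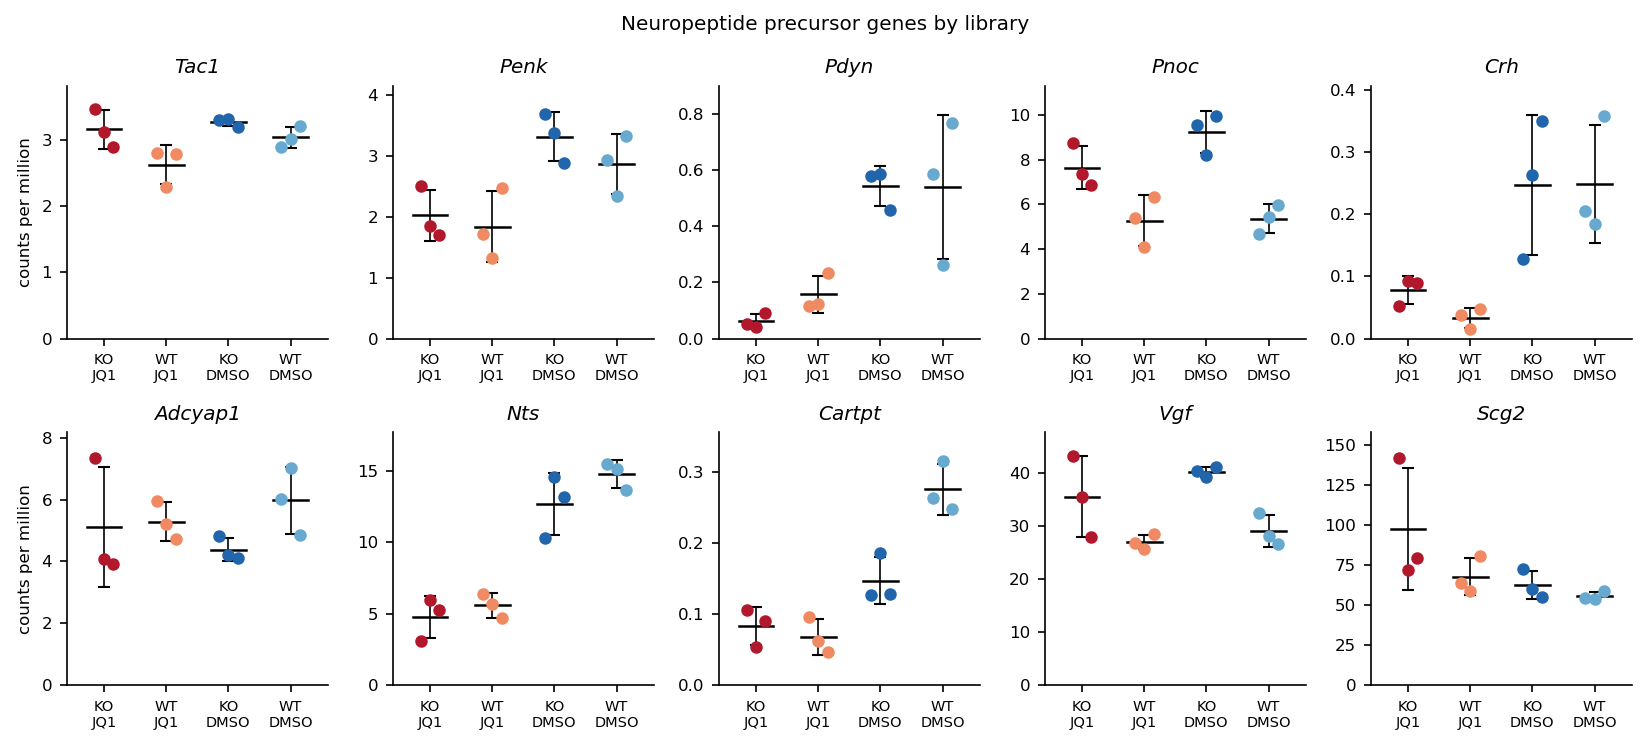
CPM (y axis, linear, starting at 0, with its own scale in each panel) of the 10 precursor genes in each library, grouped by genotype and treatment; points are libraries, horizontal lines means and bars SD (n = 3). Nts, Pdyn, Crh and Cartpt lie lower in every JQ1 library than in every DMSO library of the same genotype, and KO with JQ1 replicate 1 stands above the rest for Scg2 at 141 CPM.

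In KO neurons JQ1 lowered 4 of the 10 precursors, Penk, Pdyn, Crh and Nts, and raised 1, Scg2. In WT neurons it lowered 5, Penk, Pdyn, Crh, Nts and Cartpt, and raised none. JQ1 moved much of the transcriptome: of all genes tested, 29.4% were called lower and 27.7% higher in KO, and 29.3% lower and 25.9% higher in WT (edgeR quasi-likelihood test, adjusted p under 0.05). The members' median log2 change was -0.50 in KO and -0.51 in WT, where the median of all genes was 0.001 in KO and -0.004 in WT. Against that background 4 or 5 of 10 genes called lower is no result about the set, and the description rests on single genes. Pdyn, Crh and Cartpt passed the filter on low counts almost only through DMSO libraries, so a lower value under JQ1 was built into their being tested.

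Some markers of cells other than neurons were called lower with JQ1 as well, though none of the progenitor markers. Of all genes tested, 29.4% were called lower in KO and 29.3% in WT. Of 8 astrocyte markers, 4 were called lower in KO and 5 in WT, at median log2 changes of -0.48 in KO and -0.57 in WT. Microglia markers, 7 of 8 tested, had 5 called lower in KO and 3 in WT, at medians of -1.27 and -0.53. Their summed level was 7.77 to 9.92 CPM in KO neurons with JQ1 against 10.2 to 13.2 CPM in KO neurons with DMSO, and 7.00 to 8.29 CPM in WT neurons with JQ1 against 9.95 to 10.7 CPM in WT neurons with DMSO. Endothelial and mural markers, 4 of 8 tested, had 2 called lower in KO and 3 in WT, and fibroblast markers, all 6 tested, had 4 called lower in KO and 2 in WT. Itgam of the microglia markers and Lum of the fibroblast markers exceeded the low-count filter's cutoff of 0.218 CPM only in DMSO libraries. For these genes a lower value under JQ1 was built into their being tested. Of 8 oligodendrocyte lineage markers, 3 were called lower in each genotype and 1 higher in WT, while of 8 progenitor markers none was called lower with JQ1 and 2 were called higher in KO and 1 in WT. Between genotypes, 2 progenitor markers were called lower in KO with DMSO and 3 with JQ1, 2 astrocyte markers were called lower with DMSO and 1 with JQ1, and fibroblast markers had 1 called higher and 2 lower with DMSO and 1 lower with JQ1. No microglia, endothelial, mural or oligodendrocyte lineage marker was called between genotypes. The part of these cells in the values of any precursor was not tested.

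Nts encodes the precursor of neurotensin and neuromedin N. It had 3.11, 5.96 and 5.26 CPM in KO neurons with JQ1, against 10.3, 14.6 and 13.2 CPM in KO neurons with DMSO. WT libraries gave 6.40, 5.64 and 4.67 CPM with JQ1, against 15.5, 15.1 and 13.6 CPM with DMSO. The treated and vehicle libraries did not overlap in either genotype, as for 31.1% of all genes that lay lower without overlap in KO and 32.2% in WT. The log2 change was -1.38 in KO (SE 0.181; edgeR, adjusted p = 1.83e-05), a level 2.60 times lower. In WT it was also -1.38 (SE 0.18; edgeR, adjusted p = 1.93e-05). Nts rested on 100 to 942 reads per library and had the most reads of the genes that fell.

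Among the opioid precursors, Penk encodes proenkephalin, the source of the enkephalins, and Pdyn prodynorphin, the source of the dynorphins. Penk had 2.51, 1.85 and 1.71 CPM in KO neurons with JQ1, against 3.69, 3.37 and 2.89 CPM in KO neurons with DMSO. Its WT values were 1.71, 1.32 and 2.47 CPM with JQ1, against 2.93, 2.34 and 3.33 CPM with DMSO. The groups were separate in KO and overlapped in WT. In KO, Penk fell by 0.72 on a log2 scale (SE 0.197; edgeR, adjusted p = 0.00609) and by 0.78 in WT (SE 0.213; edgeR, adjusted p = 0.00641). The WT call was lost without replicate 2 of WT with JQ1 (log2 change -0.52; edgeR, adjusted p = 0.0673). Penk shares 233 exonic bases with A830012C17Rik on the opposite strand in GENCODE M21, and the sources used here do not say whether counting used strand.

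Pdyn was counted at 2, 3 and 3 reads in KO neurons with JQ1, against 32, 38 and 25 reads in KO neurons with DMSO. In WT neurons there were 6, 16 and 5 reads with JQ1, against 20, 10 and 28 with DMSO. Scaled for depth, the libraries did not overlap in either genotype (31.1% of all genes lower without overlap in KO, 32.2% in WT). Pooled over libraries, the JQ1 level was 0.0998 times the DMSO level in KO (95% exact interval 0.0419 to 0.205) and 0.248 times in WT (0.151 to 0.398); these intervals cover counting error only. The fitted log2 change was -3.26 in KO (SE 0.462; edgeR, adjusted p = 3.8e-05) and -1.98 in WT (SE 0.389; edgeR, adjusted p = 0.000641). Pdyn exceeded the low-count filter's cutoff of 0.218 CPM in all DMSO libraries, but with JQ1 in 0 KO and 1 WT libraries. A lower value under JQ1 was thus favoured by its being tested.

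Pnoc, which encodes prepronociceptin, the precursor of nociceptin, had 8.73, 7.36 and 6.85 CPM in KO neurons with JQ1, against 9.56, 8.20 and 9.96 CPM in KO neurons with DMSO. In WT neurons it had 5.38, 4.08 and 6.35 CPM with JQ1, against 4.69, 5.42 and 5.97 CPM with DMSO. The groups overlapped in both genotypes. The log2 change was -0.27 in KO (95% interval -0.57 to 0.03; edgeR, adjusted p = 0.108) and -0.09 in WT (-0.42 to 0.24; edgeR, adjusted p = 0.643). With same-numbered KO libraries paired, the KO change of -0.26 passed the threshold (edgeR with a replicate block, adjusted p = 0.0449), as did -0.37 without replicate 1 of KO with JQ1 (edgeR, adjusted p = 0.0481).

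Tac1 encodes the precursor of substance P and neurokinin A. It had 3.48, 3.13 and 2.90 CPM in KO neurons with JQ1, against 3.31, 3.33 and 3.20 CPM in KO neurons with DMSO. WT libraries gave 2.81, 2.30 and 2.80 CPM with JQ1, against 2.90, 3.03 and 3.22 CPM with DMSO. Its log2 change was -0.05 in KO (95% interval -0.28 to 0.18; edgeR, adjusted p = 0.721) and -0.24 in WT (-0.49 to 0.00; edgeR, adjusted p = 0.0876), neither past the threshold. Its KO interval does not reach the change of Nts.

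Crh encodes corticotropin-releasing hormone. It was counted at 2, 7 and 3 reads in KO neurons with JQ1, against 7, 17 and 19 reads in KO neurons with DMSO. In WT neurons there were 2, 2 and 1 reads with JQ1, against 7, 7 and 13 with DMSO. Scaled for depth, the libraries did not overlap in either genotype (31.1% of all genes lower without overlap in KO, 32.2% in WT). Pooled over libraries, the JQ1 level was 0.331 times the DMSO level in KO (95% exact interval 0.159 to 0.638) and 0.0987 times in WT (0.0297 to 0.26). The fitted log2 change was -1.57 in KO (SE 0.467; edgeR, adjusted p = 0.0102) and -3.21 in WT (SE 0.598; edgeR, adjusted p = 0.00042). The KO call was lost without both KO replicate 3 libraries (log2 change -1.31; edgeR, adjusted p = 0.0686). Crh exceeded the low-count filter's cutoff of 0.218 CPM in 2 KO and 1 WT libraries with DMSO and in 0 with JQ1. A lower value under JQ1 was thus built into its being tested.

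Cartpt encodes the precursor of the CART peptides. It was counted at 4, 4 and 3 reads in KO neurons with JQ1, against 7, 12 and 7 reads in KO neurons with DMSO. In WT neurons there were 5, 8 and 1 reads with JQ1, against 9, 12 and 9 with DMSO. The pooled ratio was 0.501 in KO (95% exact interval 0.224 to 1.05) and 0.249 in WT (0.122 to 0.484). The fitted log2 change was -1.96 in WT (SE 0.372; edgeR, adjusted p = 0.00048). In KO it was -0.96 (SE 0.407) and did not pass (edgeR, adjusted p = 0.0756). Only the WT libraries with DMSO exceeded the filter's cutoff of 0.218 CPM, in 3 of 3, so Cartpt was tested because of the group in which it was highest.

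Adcyap1 encodes PACAP, a peptide that raises cyclic AMP through its receptors. It had 7.36, 4.07 and 3.92 CPM in KO neurons with JQ1, against 4.82, 4.22 and 4.10 CPM in KO neurons with DMSO. Its WT values were 5.96, 5.20 and 4.71 CPM with JQ1, against 6.03, 7.03 and 4.87 CPM with DMSO. The groups overlapped in both genotypes. The log2 change was 0.21 in KO (95% interval -0.23 to 0.64; edgeR, adjusted p = 0.401) and -0.16 in WT (-0.59 to 0.27; edgeR, adjusted p = 0.519). Without replicate 1 of KO with JQ1, its highest library, the KO value was -0.13.

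The granins Scg2 and Vgf are sorted into dense-core vesicles and cut into several peptides. Scg2 had 141, 71.9 and 78.9 CPM in KO neurons with JQ1, against 72.1, 60.0 and 55.0 CPM in KO neurons with DMSO. In WT neurons it had 63.7, 58.6 and 80.6 CPM with JQ1, against 54.3, 53.6 and 58.7 CPM with DMSO. Treated libraries ran higher, but 1 vehicle library in each genotype stood above the lowest treated one by a small margin. In KO, Scg2 rose by 0.64 log2 units (SE 0.197; edgeR, adjusted p = 0.0125). That call rested on single libraries: without replicate 1 of KO with JQ1 the change was 0.28 (edgeR, adjusted p = 0.0629), and without replicate 3 of KO with DMSO it was 0.54 (edgeR, adjusted p = 0.0537). In WT the change was 0.27 (SE 0.201; edgeR, adjusted p = 0.271). It passed when only the WT libraries were fitted (0.26; edgeR, adjusted p = 0.0431) and without replicate 1 of KO with JQ1, a library outside the comparison (0.27; edgeR, adjusted p = 0.0446). With ERCC scaling it was -0.38 (edgeR, adjusted p = 0.277).

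Vgf had 43.3, 35.6 and 27.9 CPM in KO neurons with JQ1, against 40.5, 39.4 and 41.2 CPM in KO neurons with DMSO. WT libraries gave 26.9, 25.7 and 28.5 CPM with JQ1, against 32.4, 28.1 and 26.7 CPM with DMSO. The groups overlapped in both genotypes. The log2 change was -0.18 in KO (95% interval -0.42 to 0.07; edgeR, adjusted p = 0.196) and -0.11 in WT (-0.36 to 0.14; edgeR, adjusted p = 0.439). Without replicate 1 of KO with JQ1, the KO change was -0.33 and passed (edgeR, adjusted p = 0.00883). That library was the highest of its group for 7 of the 10 genes, Scg2, Vgf, Adcyap1, Pnoc, Tac1, Penk and Cartpt, and the lowest for Nts and Crh. Its summed astrocyte markers, 306 CPM, lay below the 501 and 472 CPM of replicates 2 and 3. Its summed level of 12 activity-induced transcription factors, 241 CPM, lay near the bottom of its group's range of 240 to 266 CPM; the part of astrocytes or of activity in its values was not tested.

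**Figure D2:**
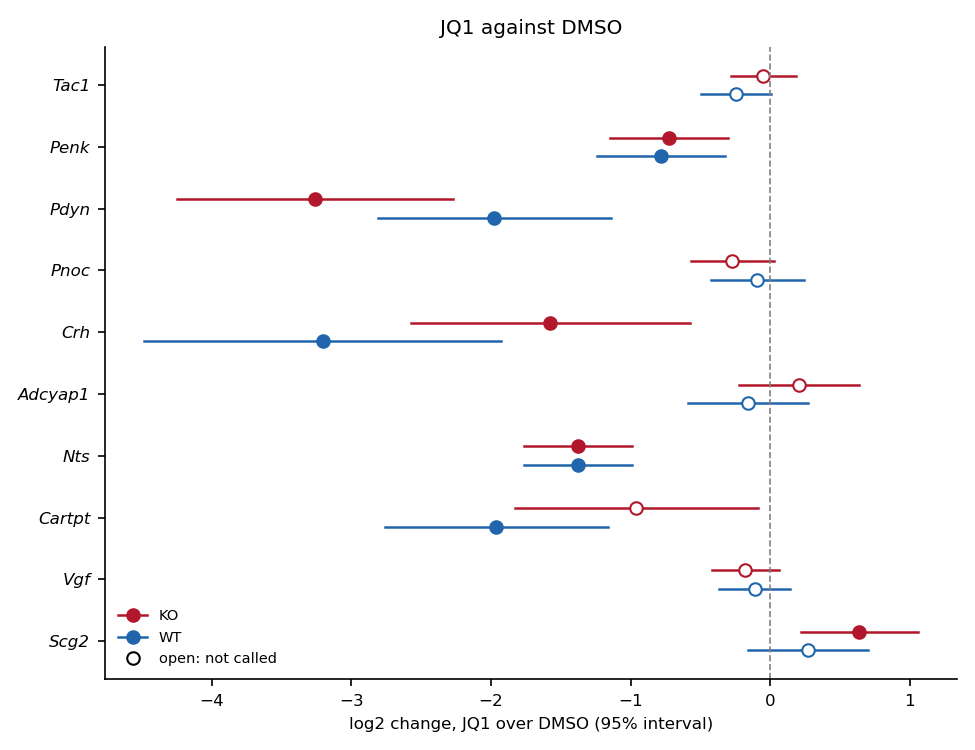
Log2 change of each precursor gene, JQ1 over DMSO (x axis), in KO (red, upper) and WT (blue, lower) neurons, with 95% intervals; filled points passed the test. Nts coincides in both genotypes at -1.38, Pdyn, Crh and Cartpt have wide intervals from few reads, and Scg2 lies right of 0.

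For no member was a difference between genotypes in the response to JQ1 called: 0 of 10 passed, as did 0 of all 15433 genes (0% higher, 0% lower; edgeR, interaction term). At an unadjusted p under 0.05 there were 355 genes and 0 members, and DESeq2 called 0 members and 0 genes as well. For Nts the difference of the responses, KO minus WT, was -0.003 on the log2 scale (95% interval -0.54 to 0.53). For Penk it was 0.06 (-0.56 to 0.68). The intervals of Pdyn (-2.72 to 0.16) and Crh (-0.12 to 3.39) were wide enough to hold large differences in opposite directions.

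Between genotypes, 2 of the 10 precursors were higher in KO than in WT neurons with DMSO, Pnoc and Vgf, and none was called lower. Of all genes, 7.21% were called higher and 7.76% lower in that comparison. With JQ1 the same 2 genes were called higher and again none lower, where 4.85% of genes were higher and 4.13% lower. On the ERCC scale, the DMSO changes turned to -0.03 for Pnoc and -0.36 for Vgf, where the median of all genes was -0.82. Relative to that median they were 0.79 and 0.47.

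Pnoc had 9.56, 8.20 and 9.96 CPM in KO neurons with DMSO, against 4.69, 5.42 and 5.97 CPM in WT neurons with DMSO. Every KO library exceeded every WT library, as for 17% of all genes in that comparison. The log2 change was 0.78 (SE 0.146; edgeR, adjusted p = 0.00474), a level 1.72 times higher, and 99.2% of tested genes had a lower change. With JQ1 the values were 8.73, 7.36 and 6.85 CPM in KO and 5.38, 4.08 and 6.35 CPM in WT. These groups were again without overlap, as for 14.1% of all genes that lay higher. The log2 change with JQ1 was 0.60 (SE 0.148; edgeR, adjusted p = 0.0234). The JQ1 call was lost when only the JQ1 libraries were fitted (edgeR, adjusted p = 0.0533). It was also lost without replicate 1 of KO, replicate 1 of WT or replicate 2 of WT with JQ1 (edgeR, adjusted p from 0.0583 to 0.136).

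Nociceptin is made in the cortex largely by GABAergic cells, and inhibitory neuron markers were higher in KO as well. Of 8 such markers, 6 were called higher in KO with DMSO and none lower, and with JQ1 2 were called higher and none lower. The share of all genes called higher was 7.21% with DMSO and 4.85% with JQ1. Without both KO replicate 3 libraries the DMSO count of these markers was 3, where 1472 of 15625 genes were called higher. On the ERCC scale that count was 0, where 4 of 15433 genes were called higher. Among the 6 were Dlx5 at a log2 change of 0.67 (edgeR, adjusted p = 0.018) and Gad1 at 0.45 (edgeR, adjusted p = 0.0314). Their summed level was 531 to 571 CPM in KO with DMSO against 376 to 465 CPM in WT with DMSO, and 508 to 597 CPM in KO with JQ1 against 372 to 533 CPM in WT with JQ1. Per 100 CPM of these markers, Pnoc stood at 1.67, 1.55 and 1.83 CPM in KO with DMSO, against 1.13, 1.44 and 1.28 CPM in WT with DMSO. With JQ1 it stood at 1.46, 1.45 and 1.24 in KO, against 1.28, 1.1 and 1.19 in WT. The ratio was thus higher in every KO library with DMSO than in any WT library with DMSO, and the groups overlapped with JQ1. The ratio was chosen after the values were seen and carries no test.

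**Figure D3:**
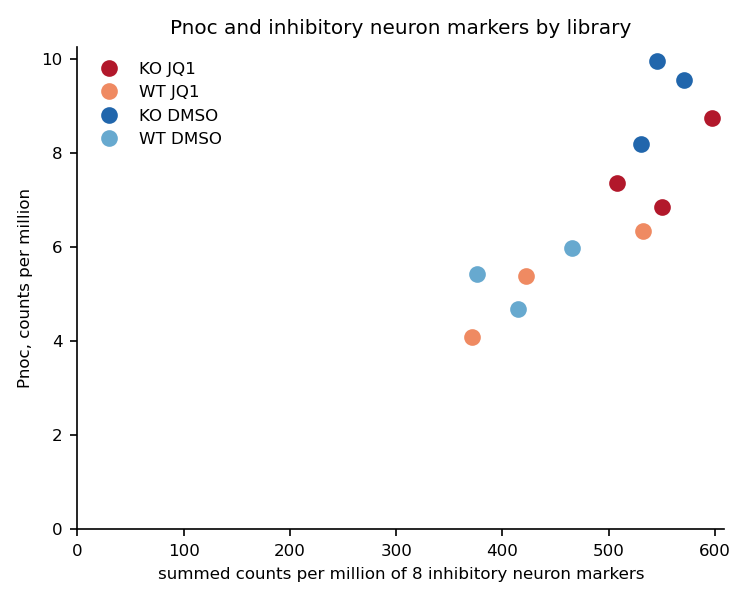
Pnoc in CPM (y axis) against the summed CPM of 8 inhibitory neuron markers (x axis), both from 0, 1 point per library, coloured by group. The 3 KO libraries with DMSO lie at 8.20 to 9.96 CPM of Pnoc and 531 to 571 CPM of markers, above and to the right of the WT libraries with DMSO at 4.69 to 5.97 and 376 to 465 CPM.

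Vgf, whose transcription is known to follow neurotrophins and activity, had 40.5, 39.4 and 41.2 CPM in KO neurons with DMSO, against 32.4, 28.1 and 26.7 CPM in WT neurons with DMSO. The KO libraries lay close together and above all WT libraries, a separation that 17% of all genes showed. The log2 change was 0.47 (SE 0.115; edgeR, adjusted p = 0.0161). The call was lost without replicate 2 of WT with DMSO (edgeR, adjusted p = 0.0607) or replicate 3 of WT with DMSO (edgeR, adjusted p = 0.0526), with the change still at 0.45 and 0.43. With JQ1 Vgf had 43.3, 35.6 and 27.9 CPM in KO, against 26.9, 25.7 and 28.5 CPM in WT. The lowest KO library lay below the highest WT library there, and the log2 change was 0.41 (SE 0.116; edgeR, adjusted p = 0.0434). Leaving out replicate 1 of KO with JQ1 took it to 0.25 (edgeR, adjusted p = 0.161), and 7 other leave-one-out fits also lost the call (edgeR, adjusted p from 0.0564 to 0.159).

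Adcyap1 and Cartpt lay lower in all 3 KO libraries than in all 3 WT libraries with DMSO without passing the test in the fit of all 12 libraries. Adcyap1 had 4.82, 4.22 and 4.10 CPM in KO and 6.03, 7.03 and 4.87 CPM in WT, for a log2 change of -0.45 (SE 0.202; edgeR, adjusted p = 0.144). Without replicate 1 of KO with JQ1, a library outside this comparison, Adcyap1 had the same change and passed (edgeR, adjusted p = 0.0276). Separation of this kind was common: 20.7% of all genes lay lower in every KO library with DMSO than in every WT one. Cartpt, at 7, 12 and 7 reads in KO and 9, 12 and 9 reads in WT, gave a pooled ratio of 0.54 (95% exact interval 0.307 to 0.945) and a log2 change of -0.88 (edgeR, adjusted p = 0.0942). Only the WT libraries with DMSO carried Cartpt past the filter on low counts, so a lower KO value with DMSO was built into its being tested. On the ERCC scale both were called lower, Adcyap1 at -1.30 (edgeR, adjusted p = 0.00366) and Cartpt at -1.70 (edgeR, adjusted p = 0.00956), where the median of all genes was -0.82. On that scale 11990 of all 15433 genes were called lower. With JQ1 neither separation was seen, at 7.36, 4.07 and 3.92 CPM of Adcyap1 in KO against 5.96, 5.20 and 4.71 CPM in WT.

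The other 6 precursors gave no call between genotypes in the fit of all 12 libraries. In DMSO the log2 change was 0.11 for Tac1, 0.21 for Penk, 0.02 for Pdyn, -0.01 for Crh, -0.22 for Nts and 0.17 for Scg2. With ERCC scaling, Tac1, Nts and Scg2 were called lower there (edgeR, adjusted p from 0.00985 to 0.0481), as were 11990 of all 15433 genes. With JQ1 the Scg2 change was 0.54 (SE 0.198; edgeR, adjusted p = 0.102), and its groups overlapped. It was called with no filter (0.54; edgeR, adjusted p = 0.00593) and without replicate 2 of KO with JQ1 (0.72; edgeR, adjusted p = 0.0451), and was 0.17 without replicate 1 of KO with JQ1 (edgeR, adjusted p = 0.471). Separation without a call was common with JQ1 too, where 14.1% of all genes lay higher and 12.8% lower in every KO library. Tac1 stood higher in every KO library, at a log2 change of 0.30 (95% interval 0.06 to 0.54; edgeR, adjusted p = 0.106). Crh, at 2, 7 and 3 reads in KO with JQ1 against 2, 2 and 1 in WT with JQ1, separated only once scaled for depth (lowest KO library 0.0528 CPM, highest WT library 0.0467 CPM), with a pooled ratio of 3.33 (95% exact interval 1.09 to 12.1; edgeR, adjusted p = 0.169). Pdyn stood lower in every KO library there, at 2, 3 and 3 reads against 6, 16 and 5 in WT, a pooled ratio of 0.411 (0.161 to 0.929; edgeR, adjusted p = 0.196).

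**Figure D4:**
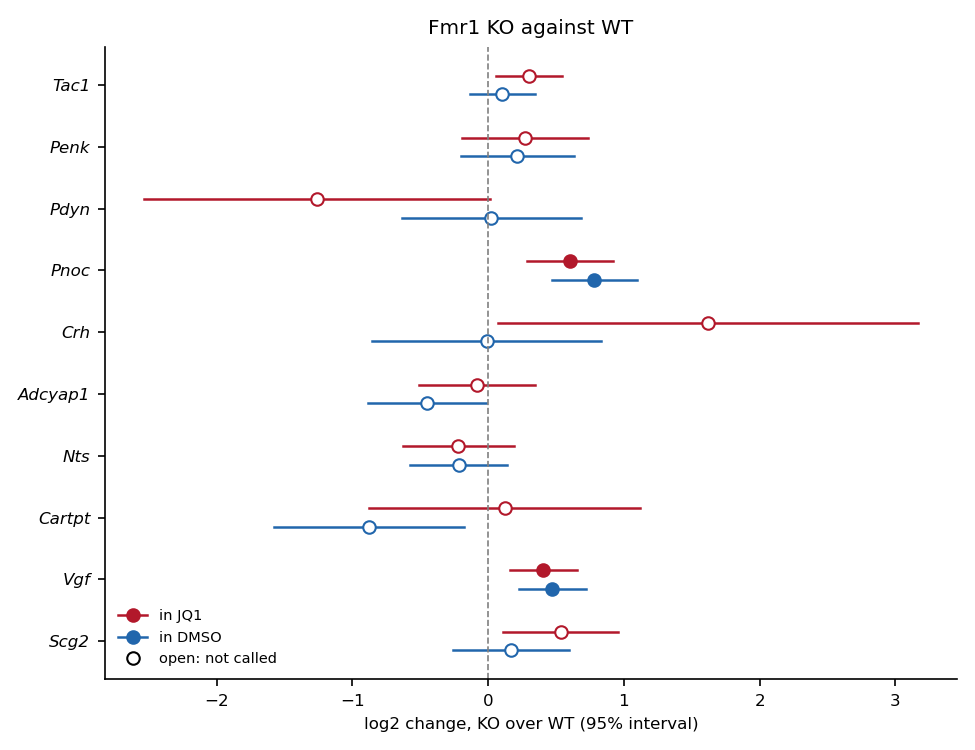
Log2 change of each precursor gene, KO over WT (x axis), in JQ1 (red, upper) and DMSO (blue, lower), with 95% intervals; filled points passed the test. Pnoc (0.60 in JQ1, 0.78 in DMSO) and Vgf (0.41 and 0.47) are filled in both, and the other 8 genes in neither.

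The authors' deposited table of KO over WT is by its name a DESeq2 result, and its name and values were read as the vehicle comparison. It gives Pnoc a log2 change of 0.63 (DESeq2, adjusted p = 8.8e-08) and Vgf 0.44 (DESeq2, adjusted p = 5.61e-08). Its changes were smaller in size than those here, at -2.00 for Fmr1 and -0.12 for Cartpt against -2.31 and -0.88. They may therefore not be on the same scale. The authors' deposited table also gives Adcyap1 a log2 change of -0.31 with an adjusted p of 0.0251, under the threshold that Adcyap1 missed here with all 12 libraries (0.144) and met without replicate 1 of KO with JQ1 (0.0276). Its adjusted p for Pdyn, Crh and Cartpt is NA in the authors' deposited table.

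Other genes of the peptide pathway were described from lists that hold none of the 10. Of 16 receptors and binding proteins of the member peptides, 13 were tested. With JQ1, 11 were called lower and 1 higher in KO, and 12 lower and 1 higher in WT, at a median log2 change of -1.12 in KO and -0.99 in WT. The share of all genes called lower was 29.4% in KO and 29.3% in WT. Tacr1, the substance P receptor, averaged 0.90 ± 0.065 CPM in KO neurons with JQ1 and 3.71 ± 0.58 CPM in KO neurons with DMSO, a log2 change of -2.02 (edgeR, adjusted p = 9.85e-08). In WT neurons it averaged 0.83 ± 0.14 CPM with JQ1 and 4.25 ± 0.33 CPM with DMSO, a log2 change of -2.40 (edgeR, adjusted p = 2.9e-08).

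Oprl1, the nociceptin receptor, averaged 33.4 ± 1.3 CPM in KO neurons with JQ1 and 65.0 ± 3.1 CPM in KO neurons with DMSO (log2 change -0.96; edgeR, adjusted p = 5.94e-09). In WT neurons it averaged 36.4 ± 0.91 CPM with JQ1 and 66.0 ± 2.8 CPM with DMSO (log2 change -0.86; edgeR, adjusted p = 1.76e-08). Of the neurotensin receptors, Ntsr1 fell by 0.60 on the log2 scale in KO and by 0.55 in WT, and Ntsr2 by 1.65 in KO and by 1.69 in WT. Oprd1, the delta opioid receptor on which enkephalins act, fell by 1.12 in KO and by 1.49 in WT. Sort1 (sortilin), a sorting receptor that also binds neurotensin, was the 1 gene of the list that rose, by 0.26 in KO and 0.21 in WT. Crhbp, which encodes the CRH-binding protein, fell by 0.82 in WT (edgeR, adjusted p = 0.0117) and was not called in KO (log2 change 0.14; edgeR, adjusted p = 0.64). Astrocytes also express Ntsr2, and of 8 astrocyte markers 4 were called lower with JQ1 in KO and 5 in WT; their part in the receptor values was not tested.

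Between genotypes the receptor list had median log2 changes of 0.02 in JQ1 and -0.06 in DMSO, with 1 called higher in DMSO (Ntsr1, log2 change 0.22; edgeR, adjusted p = 0.019) and 1 called higher in JQ1 (Sort1, 0.20; edgeR, adjusted p = 0.0431).

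Of 32 other neuropeptide precursors, 15 had enough reads. With JQ1, 9 were called lower in KO and 10 in WT, and none higher, at a median log2 change of -0.61 in KO and -0.84 in WT. The share of all genes called lower was 29.4% in KO and 29.3% in WT. Trh and Gal exceeded the low-count filter's cutoff of 0.218 CPM only in DMSO libraries, with JQ1 libraries at most at 0.0897 CPM for Trh and 0.154 CPM for Gal. For these genes a lower value under JQ1 was built into their being tested. Cck (cholecystokinin) averaged 25.5 ± 4.8 CPM in KO neurons with JQ1 and 66.8 ± 3.3 CPM in KO neurons with DMSO, a log2 change of -1.39 (edgeR, adjusted p = 1.13e-07). In WT neurons it averaged 16.8 ± 1.5 CPM with JQ1 and 40.9 ± 0.91 CPM with DMSO, a log2 change of -1.28 (edgeR, adjusted p = 3.62e-07). Grp, the gastrin-releasing peptide precursor, fell by 2.16 in KO and by 1.77 in WT. Calca, the precursor of calcitonin gene-related peptide, fell by 1.12 in KO (edgeR, adjusted p = 0.00239) and by 0.84 in WT (edgeR, adjusted p = 0.00775), from levels under 1 CPM. Without both KO replicate 3 libraries the KO count was 5 lower in place of 9.

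Between genotypes 3 of these 15 were called higher in KO in both treatments, Cck, Tac2 and Vip. The share of all genes called higher was 7.21% with DMSO and 4.85% with JQ1. Vip, the vasoactive intestinal peptide precursor and an interneuron marker, averaged 3.50 ± 0.87 CPM in KO with DMSO and 0.989 ± 0.35 CPM in WT with DMSO, a log2 change of 1.82 (edgeR, adjusted p = 0.00265). Tac2, which encodes the neurokinin B precursor, averaged 1.97 ± 0.32 CPM in KO with DMSO and 0.757 ± 0.056 CPM in WT with DMSO, a log2 change of 1.38 (edgeR, adjusted p = 0.00175). Apln (apelin) was called lower in KO with DMSO (log2 change -0.68; edgeR, adjusted p = 0.0348). On the ERCC scale, 1 of the 15 was called higher in KO with DMSO and 8 lower, where 4 of all 15433 genes were called higher and 11990 lower.

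Processing enzymes and vesicle genes moved in both directions under JQ1. Among all genes, 29.4% were called lower and 27.7% higher in KO, and 29.3% lower and 25.9% higher in WT. Of 11 processing genes, 2 were called lower and 2 higher in KO, and 2 lower and 4 higher in WT, at median log2 changes of 0.05 and 0.04. The convertase Pcsk2 averaged 82.3 ± 4.9 CPM in KO neurons with JQ1 and 124 ± 4.8 CPM in KO neurons with DMSO (log2 change -0.59; edgeR, adjusted p = 4.43e-06). In WT neurons Pcsk2 changed by -0.55 (edgeR, adjusted p = 9.44e-06). Furin also fell, by 0.39 in KO and by 0.24 in WT, while the carboxypeptidases Cpe and Cpd rose by 0.20 and 0.25 in KO and by 0.21 and 0.22 in WT. Of 10 dense-core vesicle genes, 4 were called higher and 2 lower in KO, and 4 higher and 3 lower in WT. Scg3 and Chga, granins that help form the vesicles, rose by 0.54 and 0.43 in KO and by 0.49 and 0.53 in WT.

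**Figure D5:**
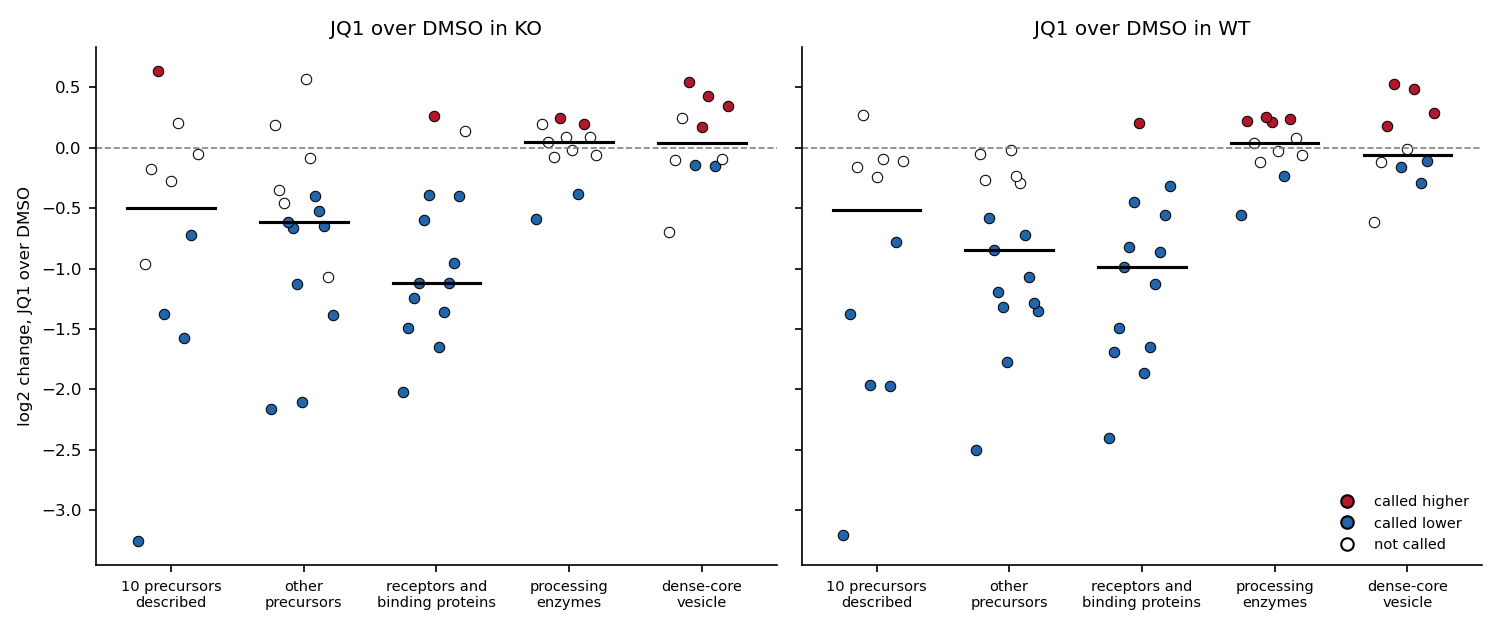
Log2 change, JQ1 over DMSO (y axis), of every tested gene in 5 lists, in KO (left) and WT (right) neurons; colours mark genes called higher or lower and black lines list medians. Receptors sit lowest, at medians of -1.12 in KO and -0.99 in WT, and processing and vesicle genes centre near 0.

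Between genotypes with DMSO, the median log2 change was 0.20 over the processing genes and 0.10 over the vesicle genes, where the median of all genes was -0.015. In that comparison, 4 of 11 processing genes were called higher and 1 lower: Pam, the amidating enzyme, at a log2 change of 0.43 (edgeR, adjusted p = 0.00183), Pcsk2 at 0.37 (edgeR, adjusted p = 0.00349), Furin at 0.32 (edgeR, adjusted p = 0.00141) and the Pcsk2 chaperone Scg5 at 0.20 (edgeR, adjusted p = 0.0266) against Pcsk5 at -0.46 (edgeR, adjusted p = 0.00367). Of 10 vesicle genes, 4 were called higher and none lower, led by Ptprn at 0.32 (edgeR, adjusted p = 0.00138) and Ptprn2 at 0.25 (edgeR, adjusted p = 0.00839). With JQ1 the counts were 4 higher and 1 lower, and 4 higher and none lower. The share of all genes called higher was 7.21% with DMSO and 4.85% with JQ1. On the ERCC scale, 0 of the 21 genes were called higher with DMSO, and 4 processing and 7 vesicle genes were called lower. Of all 15433 genes, 4 were called higher and 11990 lower there.

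Transcription factors and coactivators known to act on such promoters were measured as well. With JQ1, 29.4% of all genes were called lower and 27.7% higher in KO, and 29.3% lower and 25.9% higher in WT. Of 12 activity-induced transcription factors, 2 were called higher and 5 lower with JQ1 in each genotype: Egr1 rose by 0.57 in KO and 0.96 in WT, while Fosl2 fell by 0.87 in KO and by 0.76 in WT. Of 8 CREB family genes and coactivators, 2 were called higher with JQ1 in each genotype, near the share of all genes, and none lower. They were Crem (log2 change 0.61 in KO, 0.49 in WT) and Creb1 (0.26 in each). On the ERCC scale no gene of the receptor, precursor, processing, vesicle, activity or CREB lists was called higher with JQ1 in either genotype. Few genes were called higher there at all, 206 in KO and 40 in WT of 15433, so this is no result about the lists.

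For each precursor the gene with the most similar profile was found among 10849 genes of at least 3 CPM in a group, by the distance between log2 group means over the 4 groups, each centred on its own mean. Penk was nearest to Cx3cl1 (distance 0.0196), Tac1 to Gpr85 (0.0294), Vgf to Slc7a8 (0.0458), Adcyap1 to Xrcc2 (0.0499), Scg2 to Fam189a2 (0.0604) and Nts to Rab27b (0.082). Rab27b, a small GTPase of secretory vesicle docking, averaged 2.23 CPM in KO and 2.63 CPM in WT with JQ1, against 6.40 CPM in KO and 7.01 CPM in WT with DMSO. Matches were looser for Crh with Cdhr1 (0.175), Pnoc with Kcnk9 (0.199), Cartpt with H19 (0.282) and Pdyn with Sema3d (0.314). A match over 4 group means is a description only.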

How the data were processed

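The authors deposited 1 table of raw counts per gene for 12 libraries; per the submitters' processing notes, TopHat2 2.1.0, SAMtools 0.1.19, HTSeq 0.6.1 and the mm9 build were used, and per the labels' protocols libraries were single reads of 75 bases. The sources used here do not say whether counting used strand. The authors also deposited a comparison table with log2 fold changes and adjusted p-values. The 10 genes and all lists were chosen with earlier results of these data known.

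Counts were tested with edgeR 4.0.16 (R 4.3.3): TMM scaling without the 92 ERCC sequences, filterByExpr with a minimum count of 10, 1 quasi-likelihood fit of 4 groups, and Benjamini-Hochberg adjustment over 15433 genes, called under 0.05. The procedure was tested on simulated data. CPM use TMM-scaled library sizes. Named from each list were up to 4 genes of smallest adjusted p in a comparison, besides all members and their nearest profiles. Pooled ratios carry exact 95% intervals. Alternatives were RLE and ERCC scaling, no filter, DESeq2 1.42.0, the compared groups alone, replicate blocks and leaving out libraries. The main fit held no replicate block, so its p-values take no account of pairs. Deviations of same-numbered libraries correlated at 0.228, 0.287 and 0.212 between JQ1 and DMSO in KO. Same-numbered libraries were treated as pairs only in the alternatives with replicate blocks, in both genotypes. 1 further gene list is not reported here.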

Additional observations from a re-analysis of the deposited data

How the results depend on the processing

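Of the member values refitted under each alternative, 877 kept their direction and side of the threshold. With the sign kept, 24 lost a call and 15 gained one. Another 40 changed sign, some of which also lost or gained a call. The cause was not tested. The calls of Nts under JQ1 held in both genotypes under every alternative run. With ERCC scaling the counts of members called became 5 for KO over WT in DMSO (all lower), 0 in JQ1, 8 for JQ1 over DMSO in WT (all lower) and 2 in KO. Of all 15433 genes on that scale, 11990 were called lower for KO over WT in DMSO and 18 in JQ1. For JQ1 over DMSO, 5814 were called lower in WT and 1314 in KO, so these member counts are no result about the set. With the compared groups alone the counts of members called became 0 for KO over WT in JQ1 and 3 for JQ1 over DMSO in WT. There Pdyn, Crh and Cartpt no longer passed the filter and Scg2 was newly called higher. Leaving out 1 library gave 1 to 3 calls for KO over WT in DMSO and 0 to 2 in JQ1.

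Signs turned with ERCC scaling for KO over WT in DMSO in Tac1 (-0.695), Penk (-0.590), Pdyn (-0.756), Pnoc (-0.031), Vgf (-0.356) and Scg2 (-0.661). The median of all genes there was -0.82, lower than each of these. Signs also turned for Cartpt in JQ1 (-0.057), for JQ1 over DMSO in Scg2 in WT (-0.376) and Tac1 in KO (0.008), and for the difference of the responses in Nts (0.648), Pnoc (0.482) and Vgf (0.630). For that difference the median of all genes on the ERCC scale was 0.703. Relative to it, Nts lay at -0.056, Pnoc at -0.222 and Vgf at -0.074, each with its sign in the main fit. Relative to the medians of their comparisons, Cartpt lay at 0.064, Scg2 at 0.257 and Tac1 at -0.059, again with those signs. Crh for KO over WT in DMSO turned to 0.003 without a filter and 0.004 with the compared groups alone. Without both KO replicate 3 libraries, Adcyap1 for KO over WT in JQ1 was 0.046 and the Vgf difference of the responses 0.090. Without 1 library, values for KO over WT in DMSO ran from -0.317 to 0.400 for Pdyn and from -0.293 to 0.363 for Crh. In JQ1 they ran from -0.418 to 0.087 for Adcyap1 and from -0.100 to 0.490 for Cartpt. For JQ1 over DMSO they ran from -0.202 to 0.106 for Pnoc in WT, from -0.109 to 0.003 for Tac1 in KO and from -0.125 to 0.375 for Adcyap1 in KO. For the difference of the responses they ran from -0.204 to 0.228 for Penk, from -0.237 to 0.210 for Nts and from -0.221 to 0.073 for Vgf.

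Same-numbered libraries of JQ1 and DMSO correlated at 0.0941, 0.158 and 0.155 in WT, each best with its own number. Those of the genotypes correlated at -0.18 to 0.116, and only KO replicates 1 and 2 with JQ1 were best with their own number. The labels do not say whether same-numbered libraries shared more than a number. With a replicate block within genotype, 6 members were called for JQ1 over DMSO in KO (1 higher, 5 lower) and 6 in WT (1 higher, 5 lower; Scg2 was added at 0.267, edgeR with a replicate block, adjusted p = 0.0312), and the Penk difference of the responses was -0.035. A block over all groups left 2 members called for KO over WT in DMSO and 2 in JQ1. Depth limits Pdyn, Crh and Cartpt, at 1 to 38 reads a library, where single libraries turn signs. DESeq2 gave no adjusted p for them between genotypes.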
